A study of Mus musculus with 2 samples.

Results

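Ion channels and aquaporins, the membrane proteins that pass ions, water and small solutes, were examined in 2 testis cell preparations. Members were chosen by gene symbol. They comprise the voltage-gated sodium and calcium channels, the potassium channels, the ClC chloride channels and exchangers, 4 branches of the TRP family, the ionotropic glutamate, GABA-A and nicotinic receptors, the HCN and CatSper channels and the aquaporins. A single glutamate receptor gene was left out by the rule. The rule took 294 of 15208 non-control probes and 206 of 11142 genes. The control group was 1 preparation of Sertoli cells from untreated adult male Swiss mice aged 3 months. The busulphan group was 1 such preparation made 1 month after 25 mg/kg of busulphan, an alkylating drug used to deplete male germ cells. Both were obtained by enzymatic digestion and retention on a strainer, without culture, and the number of mice behind each is not given in the sources used here. Each was read on 1 single-colour array of 60-base probes. With 1 array per group no test was possible and no replicate error can be given, so a gene is called higher or lower in the busulphan preparation by size alone, at 2-fold or more.

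Sertoli cells line the seminiferous tubule, form the blood-testis barrier and secrete the fluid that carries sperm away, so that they depend on water, chloride and potassium transport. Spermatids and sperm carry channels of their own. CatSper is the calcium channel of the sperm tail, opened by alkaline pH. Kcnu1 encodes SLO3, the sperm potassium channel that alkaline pH also opens, and Aqp7 is an aquaporin of spermatids and sperm that passes glycerol.

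The Sertoli label was set against marker genes. Of 14 Sertoli markers compared, 13 were higher in the busulphan preparation, and none of them was below background on either array. Their summed signal, each in units of its array's 75th percentile, was 11.6 in control and 121 in busulphan, and 3.40 and 46.0 without Clu, whose busulphan spot was saturated. All 8 spermatid markers were lower, with sums of 431 and 39.1, and 6 of those control spots were saturated. Among 9 spermatocyte markers 7 were lower (214 and 38.8, with 2 control spots saturated), whereas the 6 spermatogonial markers summed to 30.5 and 30.1, with 1 higher and 2 lower, and to 24.6 and 8.95 without Uchl1, the higher one. Macrophage markers were higher for 6 of 8 genes (1.26 and 7.94). Leydig cell markers summed to 1.14 and 3.11 (1 higher and 1 lower of 6), and peritubular myoid markers to 34.8 and 56.7 (1 higher of 4). Endothelial markers gave 2.69 and 12.6 (2 higher and 1 lower of 5), and erythroid markers 1.70 and 2.75 (1 higher and 1 lower of 4). Neuronal markers gave 0.960 and 5.55 (2 higher and 1 lower of 6), with 1 of them below background on each array. A single gene made up most of some of these sums. Without Star the Leydig sums were 0.949 and 0.850, without Robo4 the endothelial sums 1.19 and 1.77, without Alas2 the erythroid sums 1.37 and 0.810, and without Tubb3 the neuronal sums 0.458 and 0.417. Nanos2, Lhcgr and Lcn8, of spermatogonia, Leydig cells and epididymis, were not well above background on either array, and Lcn9, the other epididymal gene, lay within 2-fold. The spermatid and spermatocyte markers compared were thus above background in both preparations, and the control preparation did not hold Sertoli cells alone. The part of these cell types in the results that follow was not tested. In these bulk samples fewer cells of a type and less RNA per cell cannot be told apart.

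The probe sequences below show what was read for genes that the comparison turns on. They were chosen because their mm9 coordinates reach over a gap within the gene, so that each reads spliced RNA, and because at least 1 reading frame is free of stop codons. They are printed 5′ to 3′ in lower case, as deposited. The first pair are 2 separate probes of Catsper1, a pore subunit of the sperm calcium channel.
Catsper1, chr19:5341470-5343899, plus strand: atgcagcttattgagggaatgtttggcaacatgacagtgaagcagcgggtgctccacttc
Catsper1, chr19:5340393-5341449, plus strand: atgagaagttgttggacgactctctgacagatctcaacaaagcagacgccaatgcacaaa
Catsper4, chr4:133769259-133769619, minus strand: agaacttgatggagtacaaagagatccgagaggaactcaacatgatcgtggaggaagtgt
Kcnu1, chr8:27042894-27044923, plus strand: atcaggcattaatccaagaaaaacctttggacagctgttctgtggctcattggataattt
Aqp9, chr9:70960173-70970637, minus strand: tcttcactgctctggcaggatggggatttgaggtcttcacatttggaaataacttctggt
Trpm8, chr1:90277553-90281272, plus strand: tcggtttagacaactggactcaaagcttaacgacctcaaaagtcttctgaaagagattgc
Chrna5, chr9:54852958-54854271, plus strand: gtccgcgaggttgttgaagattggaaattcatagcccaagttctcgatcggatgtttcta
Aqp2, chr15:99412578-99413554, plus strand: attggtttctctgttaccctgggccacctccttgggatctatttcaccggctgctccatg
Kcnh2, chr5:23827188-23827460, minus strand: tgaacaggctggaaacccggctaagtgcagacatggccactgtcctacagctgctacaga
The gap was 2370 bases for the first Catsper1 probe and 10405 bases for the Aqp9 probe. Of the 294 member probes, 42 spanned at least 80 bases on the genome, and the rest read an unbroken stretch or have no coordinates in the files.

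Channel genes were more often lower in the busulphan preparation than genes in general. Of the 206 genes, 166 had a probe well above background on at least 1 array and were compared. Lower in busulphan were 79 of these (47.6%), against a background of 29.5% of 9441 genes. Higher were 29 (17.5%), against a background of 31.3%. The remaining 58 genes lay within 2-fold. These counts include 30 genes detected on the control array only, which could not be called higher, and 8 detected on the busulphan array only, which could not be called lower. Among the 128 genes detected on both arrays, 57 were lower (44.5%, against 28.8% of 8522 genes) and 26 higher (20.3%, against 32.5%). Either call was made for 60.8% of all genes, so a 2-fold difference by itself was common between these 2 arrays. The median log2 ratio was -0.86 over the channel genes, a 1.81-fold lower median, and 0.07 over all genes. Lower by 16-fold or more were 22 channel genes, against a background of 5.45%, and higher by that much were 5, against 1.32%. In the plot of families below, CatSper genes and several aquaporins stand at the low end, while each family except CatSper, GABA-A and nicotinic receptors also held a higher gene.

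**Figure D1:**
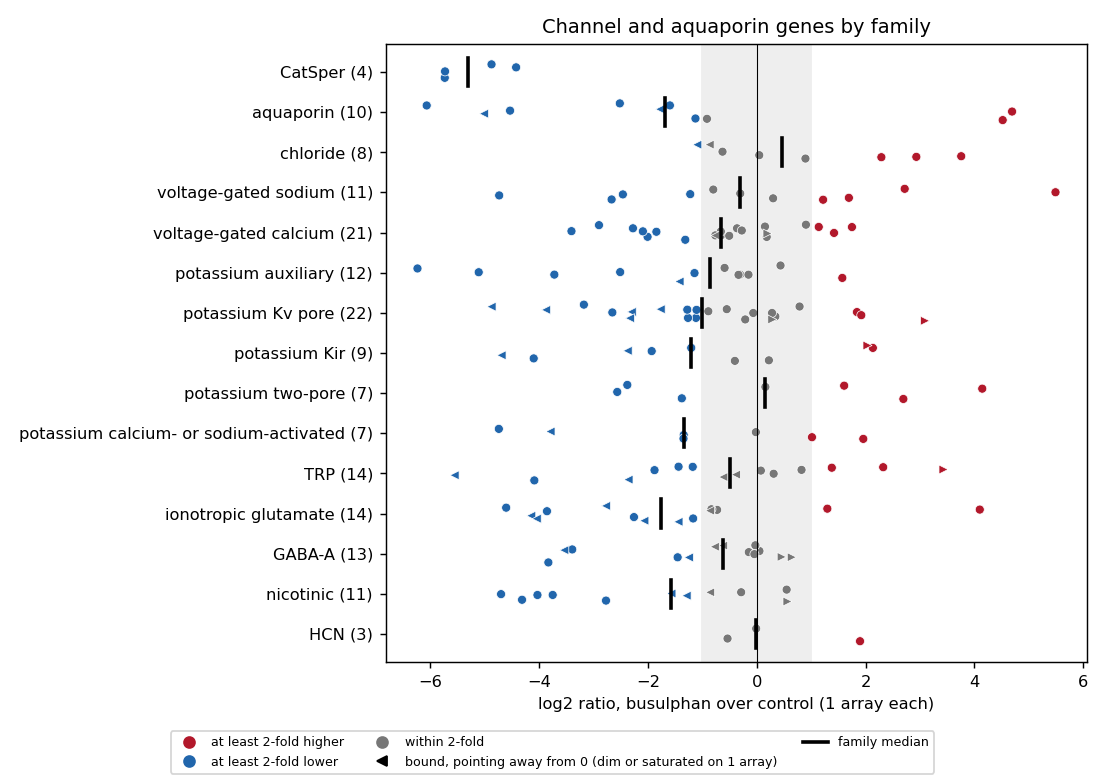
Log2 ratio of busulphan over control (horizontal axis, 1 array each) for the 166 channel and aquaporin genes compared, by family, with the number of genes in brackets. Each point is a gene by its brightest probe, triangles are bounds that point away from 0, the grey band is 2-fold and black bars are family medians. The 4 CatSper genes lie between -5.74 and -4.43, and the 8 ClC genes between -1.09 and 3.76.

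Background correction changed how far the whole group departed from other genes. With normexp correction, which shrinks dim spots towards each other, 42 channel genes were lower (25.3%, against 22.7% of all genes) and 18 higher (10.8%, against 24.6%), with a median of -0.14. Scaling to spike-in controls lowered log2 ratios by 0.88, except that bounds stop at 0, and gave 110 lower and 18 higher channel genes (66.3% and 10.8%, against 46.4% and 16.2% of all genes). Under 5 settings (normexp, and scaling by the median, quantiles, loess or spike-ins), 42 of the 79 lower calls and 15 of the 29 higher calls were kept in each. On the 6 spike-in probes with 20 spots each, the SD of log2 signal between spots of an array had a median of 0.06. The scanner software's own error of the log2 ratio had a median of 0.22 over channel genes. Both describe spots, not preparations.

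The channel genes were dimmer than most genes, and loss of signal was commoner than gain. Over member probes the median signal was 32.2 in control and 14.1 in busulphan, against 136 and 132 over all probes. Well above background were 211 of 294 member probes on the control array (71.8%) and 176 on the busulphan array (59.9%), against 80.9% and 79.3% of all probes. Only on the control array were 45 member probes detected (15.3%, against 5.25% of all probes), and only on the busulphan array 10 (3.40%, against 3.68%). By gene, 128 were detected on both arrays, 30 on the control array only, 8 on the busulphan array only and 40 on neither.

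**Figure D2:**
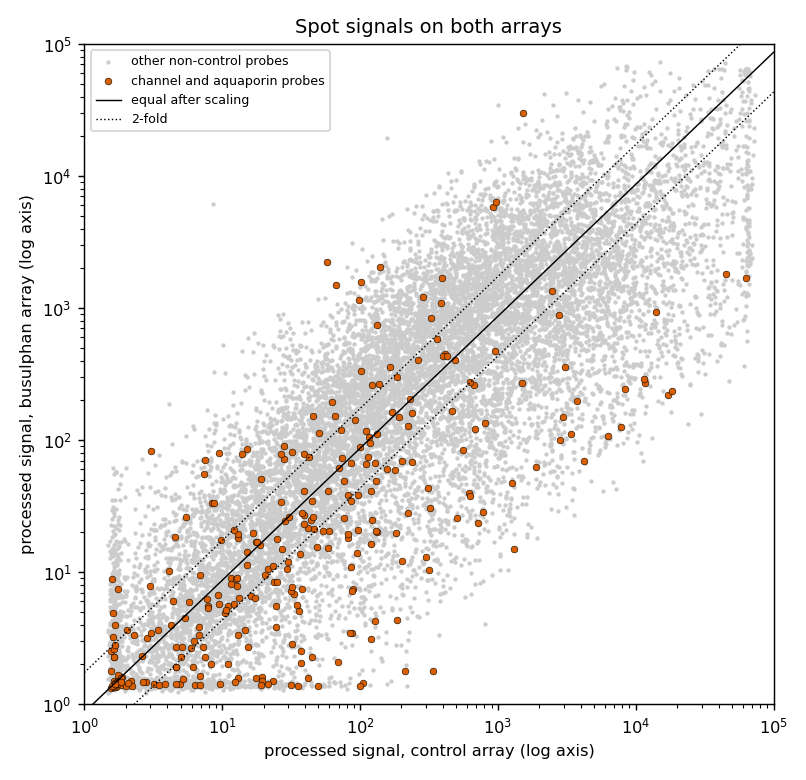
Processed signal of each non-control probe on the control array (horizontal) and the busulphan array (vertical), both on log axes and in arbitrary scanner units. Orange points are the 294 channel and aquaporin probes, the solid line marks equal signal after scaling and dotted lines mark 2-fold. Orange points with a control signal above 1000 lie mostly below the lower dotted line.

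Channel genes were also split by the brightness of the control spot, a split chosen after the values were seen and made on a signal that enters the ratio. Among the 29 channel genes whose control signal was 500 or more, 25 were lower (86.2%) and 2 were higher, Aqp8 and Clcn2. Selecting on a bright control spot itself favours lower calls. Over all 4219 genes of this class 42.6% were lower. The median log2 ratio was -4.03 for the channel genes and -0.56 for all genes of the class. Between 82.8% and 93.1% of these 29 genes were lower under the alternatives of background, scaling, filter and probe choice, where all genes ranged from 38.0% to 58.6%. With a control signal under 50, 21 of 67 channel genes were lower (31.3%, against 15.4%), and in between 33 of 70 (47.1%, against 21.6%). The share of lower channel genes thus exceeded that of all genes in each class. In the opposite selection, 12 of 18 channel genes with a busulphan signal of 500 or more were higher (66.7%, against 41.5% of all such genes).

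**Figure D3:**
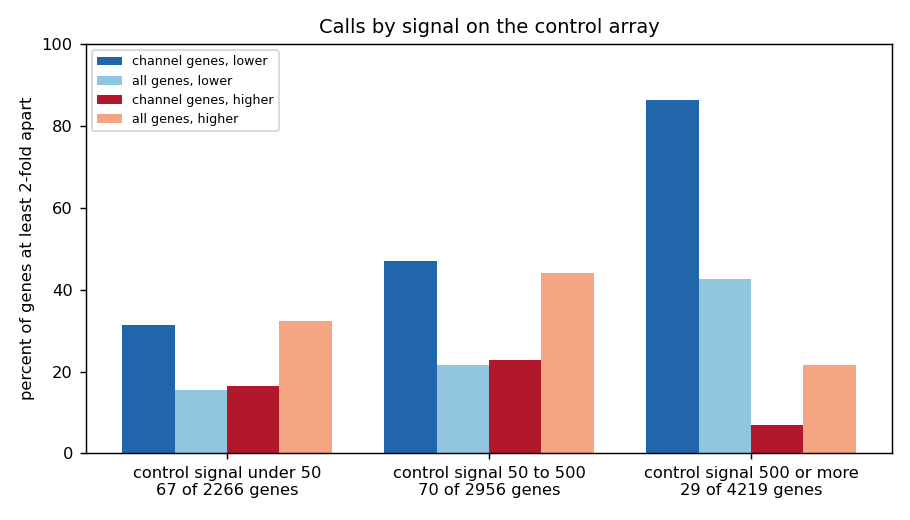
Percent of genes at least 2-fold lower (blue) or higher (red) in busulphan, for channel genes (dark bars) and all genes (pale bars), in 3 classes of signal on the control array. The share of lower channel genes was 31.3%, 47.1% and 86.2% from the dimmest to the brightest class.

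All 4 CatSper pore genes were 21.5-fold lower or more. Catsper1 read 7769 in control and 126 in busulphan (processed spot signals), 53.3-fold lower after scaling (log2 ratio -5.74). Its second probe, printed above, read 6315 and 108, a log2 ratio of -5.67, so the 2 splice junctions gave nearly the same ratio. Catsper4 read 4236 and 69.0, 53.1-fold lower. Catsper3 (chr13:55909439-55909498) read 8304 and 244, 29.4-fold lower, and Catsper2 (chr2:121223280-121223339) read 45253 and 1823, 21.5-fold lower. Each CatSper signal in the busulphan preparation was still well above background. Kcnu1, the gene of the sperm potassium channel SLO3, read 3417 and 110.5, 26.8-fold lower. A textbook list of sperm channels, which holds these genes and Aqp7 among 9 compared, had 8 lower members. Catsperz, an accessory CatSper gene, was at least 9.85-fold lower because its control spot was saturated, and Pkd2l2, a polycystin family gene, had a log2 ratio of -3.80. Hvcn1, the voltage-gated proton channel, was the 1 higher member, at 29.5 and 87.1 (log2 ratio 1.77). The median of this list was -4.74, against 0.07 over all genes.

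Among the 10 aquaporins compared, 7 were lower, 2 were higher and 1 lay within 2-fold. Aqp7 (chr4:40981243-40981302), the glycerol channel of sperm, read 18288 in control and 236 in busulphan, 67.1-fold lower with a log2 ratio of -6.07. Its second probe gave -6.07 as well but shares 38 bases with the first, so the pair is hardly independent. Aqp11 (chr7:104874989-104875048), an aquaporin of intracellular membranes, was saturated in control at 63387 and read 1695 in busulphan, so that it was at least 32.4-fold lower. Aqp9, which passes urea and glycerol, read 1274 and 47.5, 23.2-fold lower, and its second probe, the spliced one printed above, gave -4.58 against -4.54. Aqp3 (chr4:41039962-41040021), another glycerol channel, was 5.73-fold lower at 132 and 20.0. Dimmer and smaller differences were seen for the other lower aquaporins. Aqp2, the vasopressin-regulated water channel of kidney, read 240.1 and 68.6, 3.03-fold lower. Aqp4 (chr18:15551966-15552025), the water channel of astrocytes, was 2.19-fold lower at 97.5 and 38.6, a call lost with normexp (log2 ratio -0.49). Aqp12 (chr1:94908593-94908652), known from pancreas, was at least 3.43-fold lower, with 24.8 in control and no signal above background in busulphan, and its call was lost with normexp too (-0.22). Aqp1 (chr6:55298480-55298539), a widespread water channel, lay just outside the size rule at 46.4 and 21.3 (log2 ratio -0.92). Aqp6 was not well above background on either array.

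Aqp8 and Aqp5 ran the other way. Aqp8 (chr7:130611436-130611495), which passes water, ammonia and hydrogen peroxide, read 1511 in control and 30013 in busulphan, 22.9-fold higher with a log2 ratio of 4.52. Aqp5 (chr15:99425131-99425189), a water channel of secretory glands, read 66.8 and 1494, 25.9-fold higher. Both calls were kept under all 5 settings of background and scaling. The Sertoli marker list moved the same way, with 13 of 14 members higher and a median log2 ratio of 3.51, as did the macrophage list with 6 of 8 and a median of 3.25. Over all genes 31.3% were higher, and the cells that Aqp8 and Aqp5 came from were not tested. The family median of the aquaporins was -1.69, and -0.76 with normexp correction.

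**Figure D4:**
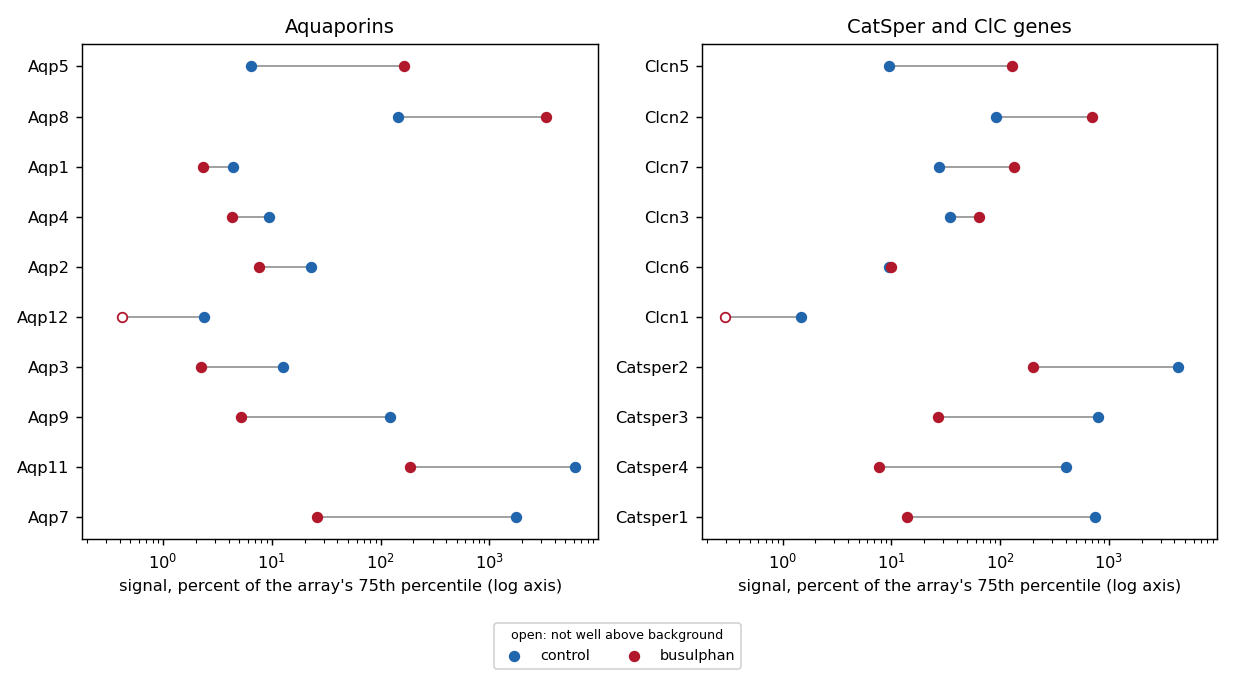
Signal on each array as a percent of that array's 75th percentile (horizontal log axis) for the 10 aquaporins compared (left) and for CatSper and ClC genes (right), with control in blue, busulphan in red and open circles for spots not well above background. Aqp8, Aqp5 and 3 ClC genes lie to the right in busulphan by 2-fold or more, and the 4 CatSper genes lie to the left.

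Potassium channel genes formed the largest group, with 57 compared, 29 lower and 11 higher (50.9% and 19.3%, median -1.11). Their auxiliary subunits held the lowest ratio among members measured on both arrays. Kcnip2 (chr19:45868494-45868553), a calcium-binding partner of A-type channels, read 1302 in control and 14.9 in busulphan, 75.5-fold lower with a log2 ratio of -6.24 and a spot error of 0.24. That ratio became -4.07 with normexp and was then no longer the lowest. Kcne3 (chr7:107333062-107333121), a small membrane subunit that modulates voltage-gated channels, read 11532 and 288, 34.6-fold lower. Kcnmb4, a subunit of the calcium-activated BK channel, read 14147 and 927, 13.2-fold lower. Kcne4, from the same family as Kcne3, was the 1 higher auxiliary gene of 12, at 325 and 836 (log2 ratio 1.57, and 0.69 with spike-in scaling).

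The voltage-gated pore genes were lower in 11 and higher in 3 of 22 cases, with a median of -1.0 that moved to -0.11 with normexp correction. Kcnc1 (chr7:53682767-53682826), a fast delayed rectifier of neurons, read 212 in control and was not above background in busulphan, at least 29.4-fold lower. Its bound of -4.88 became -1.89 with normexp. Kcnh8 was at least 14.7-fold lower (log2 ratio -3.87, and -1.21 with normexp). Kcnc2 was 9.06-fold lower at 321 and 30.6 (-3.18, and -1.96 with normexp). Kcnq1, the slow cardiac and epithelial channel, was 6.30-fold lower at 313 and 43.0. On the other side, Kcnh2, the cardiac repolarising channel known as hERG, read 101 and 332, 3.79-fold higher. Kcnd3, an A-type pore gene, was 3.58-fold higher at 62.8 and 195. Kcng3, a silent modifier subunit, was at least 8.53-fold higher, from below background to 55.3. The higher call was lost for Kcnd3 with spike-in scaling (1.84 to 0.96) and for Kcng3 with normexp (3.09 to 0.89), whereas Kcnh2 kept its call.

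Inward rectifiers were lower in 5 of 9 genes and higher in 2, with a median of -1.21. Kcnj6 (chr16:95053973-95054032) and Kcnj9 (chr1:174250837-174250896), G protein-gated subunits, were both lower. Kcnj6 read 187 and was not above background in busulphan, at least 25.9-fold lower, and Kcnj9 read 2979 and 150.1, 17.2-fold lower. With normexp Kcnj6 went from -4.69 to -1.86 and Kcnj9 from -4.10 to -3.69. Kcnj14 was 4.39-fold higher, from dim signals of 8.80 and 33.4, with a log2 ratio of 2.13 that became 0.64 with normexp. Tandem-pore channels, which carry background potassium current, split evenly, with 3 of 7 higher, 3 lower and a median of 0.16 whose sign turned under median, quantile, loess and spike-in scaling. Kcnk13 (chr12:101300491-101300550), a channel inhibited by halothane, read 103 and 1569, 17.7-fold higher. Kcnk6 was 6.47-fold higher at 132 and 740.4, while Kcnk2, a stretch-sensitive channel, was 5.92-fold lower at 95.1 and 13.9 (log2 ratio -2.57, and -0.86 with normexp) and Kcnk7 was 5.21-fold lower at 807 and 134. Among channels gated by calcium or sodium, 4 of 7 were lower, led by Kcnu1, and 2 were higher. Kcnt1, the sodium-activated channel, read 45.3 and 152, 3.88-fold higher, and Kcnma1, the BK pore, passed the size rule barely, with a log2 ratio of 1.01, and did not pass it under any of the 5 settings.

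Sodium channels held the highest ratio among members measured on both arrays. Scn3b (chr9:40099133-40099192), an auxiliary beta subunit, read 57.7 in control and 2246 in busulphan, 45.0-fold higher with a log2 ratio of 5.49. Its other probes gave 3.29 and, as a bound, 3.68, so all 3 were higher but the 45.0-fold size rests on the brightest. Scn8a, a pore gene of neurons, was 3.23-fold higher at 389 and 1087 (log2 ratio 1.69, and 0.81 with spike-in scaling). By contrast Scn7a (chr2:66514113-66514172), a sodium-sensing relative that is not opened by voltage, read 319 and 10.4, 26.7-fold lower. Scn10a and Scn1a were 6.36-fold and 5.51-fold lower. With normexp Scn7a went from -4.74 to -2.29 and Scn10a from -2.67 to -1.11, and Scn1a lost its call (-2.46 to -0.97). Of 11 genes 4 were higher and 4 lower, and the median of -0.30 became 0.12 with normexp correction.

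Of 21 voltage-gated calcium channel genes, 7 were lower, 3 were higher and 11 lay within 2-fold, with a median of -0.66. The lowest was Cacng8 (chr7:3415329-3415388), a gamma subunit that also escorts glutamate receptors, at 87.7 and 7.15, 10.6-fold lower. Its log2 ratio of -3.41 became -1.01 with normexp, where Cacna1h was lower at -2.69. Cacna1h, a T-type pore gene, read 3090.4 and 358, 7.47-fold lower. Cacnb1, a beta subunit, was 4.85-fold lower at 681 and 122, while its relatives Cacnb2 and Cacnb3 were higher, with log2 ratios of 1.75 and 1.14. Cacna1c, an L-type pore gene, was 2.68-fold higher at 65.9 and 153. Another L-type gene, Cacna1d, gave -1.32 by its brightest probe but 0.83 and 0.68 by 2 further probes, so its direction is unsettled. Cacna1s, also L-type, read 2457 and 1344 and lay within 2-fold (log2 ratio -0.66). No calcium channel gene was higher with normexp or spike-in scaling.

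The ClC genes were the family with the highest median, 0.47, which became -0.41 with spike-in scaling. Clcn5 (chrX:6730950-6731009), an endosomal chloride-proton exchanger, read 98.5 in control and 1153 in busulphan, 13.5-fold higher. Clcn2 (chr16:20703250-20703309), a plasma membrane chloride channel whose loss in mice leads to degeneration of the testis, read 964 and 6367, 7.63-fold higher. Its second probe gave a log2 ratio of 2.87 against 2.93. Clcn7, the lysosomal exchanger, was 4.89-fold higher at 288 and 1220.2. All 3 kept their calls under the 5 settings. Clcn3 stood just outside the rule with a log2 ratio of 0.89. Clcn1, the muscle channel, was the 1 lower gene, with a bound of -1.09 from a control signal of only 15.4, and its call was lost with normexp (-0.11).

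TRP channels were lower in 6 and higher in 3 of 14 genes. Trpm8 (chr1:90277553-90281272), the receptor for cold and menthol, read 340.2 in control and was not above background in busulphan, at least 47.1-fold lower. Its bound of -5.56 became -2.55 with normexp. Trpm6, a magnesium channel, read 508 and 25.8, 17.0-fold lower. Its close relative Trpm7, a magnesium channel fused to a kinase, was 5.00-fold higher at 390.5 and 1691, so the pair ran in opposite directions. Trpm3 (chr19:23069522-23069581), a steroid-sensitive channel, was at least 10.7-fold higher, from below background to 70.1 (log2 ratio 3.42, and 1.18 with normexp). Trpm4, opened by calcium, was 2.71-fold lower at 2777 and 886.

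Ionotropic glutamate receptors had 9 lower and 2 higher genes of 14, with a median of -1.75. Grin3b (chr10:79439842-79439901), an NMDA receptor subunit that binds glycine, read 2818 and 100.0, 24.4-fold lower. Gria4, an AMPA receptor gene, and Grik2, a kainate receptor gene, were at least 17.7-fold and 16.5-fold lower, both without signal above background in busulphan. Their bounds were -4.15 and -4.05, and only -1.24 and -1.36 with normexp. Grik4 was 14.5-fold lower at 629 and 37.5. Against these, Grin2c (chr11:115110671-115110730), an NMDA subunit of cerebellum, read 139 and 2062, 17.1-fold higher. Gria1 gave 1.30 by its brightest probe and -0.90 by the other, and is uncertain.

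No nicotinic or GABA-A receptor gene was called higher, with bounds counted at their bound. The nicotinic receptors, acetylcholine-gated cation channels, were lower in 7 of 11 genes with a median of -1.57. Chrna7 (chr7:70244005-70244064) read 712 and 23.7, 26.0-fold lower, while its second, dimmer probe gave a bound of -2.16. Chrna9 (chr5:66368450-66368509) was 19.9-fold lower at 301 and 13.1, and Chrna5 was 13.5-fold lower at 617 and 39.6 on the spliced probe printed above. With normexp Chrna7 went from -4.70 to -3.15, Chrna9 from -4.32 to -2.16 and Chrna5 from -3.75 to -2.60. Chrne, the subunit of adult muscle, read 3754 and 198, 16.4-fold lower, though its second, dim probe gave a bound of only -0.53. Chrna4, below background in control, had a bound of 0.56. The GABA-A receptors, chloride channels of inhibitory synapses, were lower in 5 of 13 genes. Gabra5 was at least 11.6-fold lower, with 84.1 in control and no signal above background in busulphan (log2 ratio -3.54, and -1.06 with normexp). Gabrb1 was 2.74-fold lower at 48.8 and 15.4 (log2 ratio -1.46, and -0.35 with normexp). Gabre and Gabrg1 were below background in control, with bounds of 0.64 and 0.46, and were called higher when their measured values were used (1.51 and 2.71). The family median of -0.62 became 0.00 with normexp correction.

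Of the HCN pacemaker channels, Hcn2 was 3.73-fold higher at 28.1 and 90.5, Hcn4 read 18.7 and 16.1 (log2 ratio -0.01, spot error 0.27), and Hcn3 was 1.45-fold lower.

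Pore-forming and auxiliary subunits were then set side by side. Of 137 pore-forming genes 69 were lower (50.4%) and 24 higher (17.5%), with a median of -1.09. Of 29 auxiliary genes 10 were lower (34.5%) and 5 higher (17.2%), with a median of -0.34. Over all genes 29.5% were lower and 31.3% higher, so the lower share of auxiliary genes lay near that of all genes. The ratio was a bound for 37 of the pore-forming genes and 2 of the auxiliary genes. Kcnip2 and Scn3b, the lowest and highest genes measured on both arrays, are both auxiliary. With normexp Kcnip2 was no longer the lowest, at -4.07 against -5.80 for the pore gene Aqp7. The pore genes Trpm8 and Kcnc1 have bounds of -5.56 and -4.88 and may lie below Kcnip2. Leaving out the CatSper genes gave 75 lower and 29 higher of 162 genes with a median of -0.82. Kcnu1, Aqp7 and any other germ cell gene remain in this count.

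The 40 genes not well above background on either array included 10 voltage-gated potassium pore genes (among them Kcna3, Kcna4, Kcnd1, Kcnd2, Kcnh1 and Kcnv1), 5 TRP genes (Trpa1, Trpc5, Trpc6, Trpc7 and Trpm5) and 5 GABA-A genes (among them Gabra6 and Gabrr2). Also in this state were the inward rectifiers Kcnj2, Kcnj3, Kcnj5 and Kcnj16, the nicotinic genes Chrna1, Chrna3, Chrna6 and Chrnd, and the calcium channel genes Cacna1e, Cacna1f, Cacna1i and Cacng3. Scn3a, Scn9a, Grik3, Kcnk12 and Aqp6 were further examples. Grid2ip, also among the 40, encodes a partner of a glutamate receptor and is no channel. A probe below background sets no level, and these genes received no ratio.

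Genes with several probes showed how far a ratio depended on the probe. Of 44 channel genes with at least 2 probes detected, 27 had the same call by every probe (61.4%, against 58.4% of 2644 genes in all). No channel gene had probes past 2-fold in opposite directions, as 6.54% of all genes did. The median spread between a gene's probes was 0.82 on the log2 scale, against 0.81. Aqp9, Catsper1, Clcn2 and Kcne3 agreed closely. Signs differed for 9 genes. They were Cacna1d, Cacna2d2 (-1.37 to 0.90), Gria1, Gria3 (-0.73 to 1.55), Cacna1g (-1.85 to 0.11), Trpc1 (-1.95 to 0.07), Kcnk5 (-0.88 to 0.16), Kcnj8 (-0.23 to 0.22) and Cacnb4 (-0.30 to 0.18). Gabra5 ranged from -3.54 to -0.28.

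**Figure D5:**
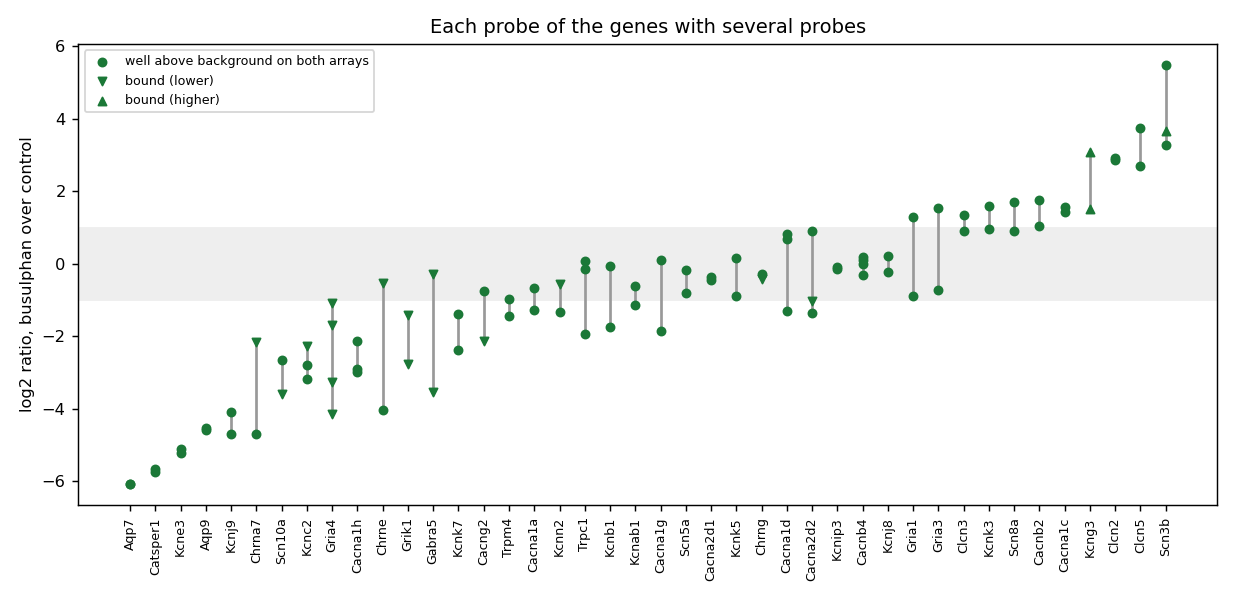
Log2 ratio of busulphan over control (vertical axis) for each detected probe of 42 channel genes with at least 2 detected probes, ordered by the middle of their range. Circles are probes well above background on both arrays, triangles are bounds, lines join the probes of a gene and the grey band is 2-fold. Aqp7 lies at -6.07 by both probes, while Cacna1d spans -1.32 to 0.83.

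Other channel genes, which the symbol rule does not take, were not shifted down as a group. Of 86 listed, 45 were compared, with 12 higher, 12 lower, 21 within 2-fold and a median of 0.35. Each call thus took 26.7% of them, near the 31.3% higher and 29.5% lower of all genes. The lowest were Best1, a bestrophin anion channel, at -5.17, and P2rx3, an ATP-gated cation channel, at -4.57. The highest were Asic2, a proton-gated sodium channel, at 3.66, and P2rx4, another ATP-gated channel, at 2.75.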

How the data were processed

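Total RNA of each preparation was labelled with Cy3, per the labels. Per the file headers, the authors obtained the deposited intensity values from their scans in Agilent's Feature Extraction software, release 11.5.1.1. The deposited log2 table gave the same ratios within 0.003. Here, log2 of the processed signal was set relative to the array's 75th percentile, which was 1046 for control and 905 for busulphan. Each gene was represented by its brightest probe on average of the arrays. Where a probe was not well above background, or was saturated, on 1 array, the ratio is a bound. A dim spot enters at its own signal or at the lowest signal well above background on its array, whichever is higher, and a saturated spot at its own. Of the 166 channel genes 38 carry a bound from a dim spot and 1 from a saturated spot. Spot error is the software's error of each signal carried to the log2 ratio. Of 15744 spots per array, 536 were controls. Both arrays have the same scan time, and earlier steps cannot be told apart from the groups. Values were computed with Python 3.11.15, numpy 2.4.6 and pandas 2.3.3, and normexp and quantile alternatives with R 4.3.3 and limma 3.58.1.

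Full values go to the 12 highest and 12 lowest genes, the extremes of each family, and all aquaporin and CatSper genes. Genes outside the rule come from lists of markers and channels, the 2 highest and 2 lowest of each. The members and lists were chosen with earlier results of these data known. Coordinates are mm9, per the file headers, and no genome was used, so exon or untranslated positions are not given. Some genes that these rules take are not reported here.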

Additional observations from a re-analysis of the deposited data

How the results depend on the processing

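With normexp background correction there were 18 higher and 42 lower channel genes and a median log2 ratio of -0.14, and with spike-in scaling 18 higher and a median of -1.74; the cause was not tested. A 4-fold size rule, stricter by construction, gave 15 higher and 51 lower. No share over all genes was taken at 4-fold, so these 2 counts are not set against other genes. Cacna1d turned from -1.32 to 0.62 with normexp and to 0.68 as the median over its probes. Median, quantile and loess scaling, the deposited table, other filters, a 1.5-fold rule, counting probes, taking the median probe of a gene and using dim or saturated values as measured kept both counts within 1.5 times the main ones. Calls of single genes were the same for 118 of 166 with normexp, 124 with spike-in scaling, 158 with median or loess scaling and 162 with quantiles. No paired analysis was possible because each group has 1 array. With 1 preparation each, differences between mice, isolations and arrays are all contained in the ratios. Dim spots limit the ratios of 38 genes to bounds and a saturated spot that of Aqp11.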

Other observations

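Members lying within 300 kb of each other on mm9 formed 26 groups of 61 genes. In 18 of these groups at least 2 genes were compared. A single call was made in 6 of them, and 4 held both a higher and a lower gene. No matching counts were made for neighbours among all genes, so these are descriptions only. The 4 mixed groups span up to 281 kb. The most compact was on chromosome 15, where Aqp2, Aqp5 and Aqp6 lie within 22.9 kb and Aqp2 had a log2 ratio of -1.60 while Aqp5 had 4.69. On chromosome 17 Clcn7 (2.29) lay near Cacna1h (-2.90), and on chromosome 10 Hcn2 (1.90) near Grin3b (-4.61). Aqp7 and Aqp3 on chromosome 4, 58.8 kb from end to end, were both lower, as were Scn1a and Scn7a on chromosome 2.

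RefSeq promoters (GRCm38.p6, 250 bases before to 50 after the start) were matched by symbol for 125 of the 166 genes compared and searched on both strands. A gene was counted if any of its promoters held the letters. The CRE letters TGACGTCA were in 0 of 61 lower, 1 of 43 within-range and 0 of 21 higher genes, and in 2.03% of the 27025 genes with promoters. The A-MYB letters AACNGNC were in 34.4% of lower, 25.6% of within-range and 57.1% of higher genes, against 36.0% of all genes with promoters. The RFX half-site GTTGCC was in 16.4%, 18.6% and 9.52% against 14.1%, and AACAAT, the SOX letters, in 9.84%, 4.65% and 14.3% against 12.2%. AGATAA, read by GATA factors, was in 13.1%, 9.30% and 0 of the 21 higher genes, against 12.7%, and TATAAA in 14.8%, 9.30% and 9.52% against 15.7%. A match of letters is a description, not a binding site.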
